A study of Homo sapiens with 6 samples.

Results

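SUM44 is an established human line from an invasive lobular breast carcinoma, which the labels describe as positive for the estrogen and progesterone receptors. It was profiled at passages 74, 75 and 76, with 1 Affymetrix array per passage, and these are 3 of the 6 samples of the series. A passage is the transfer of a growing culture to a new flask. The cells of each sample were grown in SFIH, a medium based on Ham's F12, and were still below full density when total RNA was taken with Trizol and RNeasy columns. The other 3 samples of the series come from LCCTam, a tamoxifen-resistant variant of the line, and are not described here. The genes described below were chosen by their values on these same 3 arrays, in 2 ways. The first group holds the genes with the highest mean. The second holds the genes that stepped the same way from each passage to the next, with passage 74 above 75 above 76 or the reverse, and that differed by at least 1 on the log2 scale, which is 2-fold, between passages 74 and 76. Of 11963 named genes, 137 fell in this way (1.15%) and 140 rose (1.17%). "Rose" and "fell" below mean only that a gene met this rule. Every count is a description, because each passage has 1 array, because passage and array cannot be told apart, and because the labels leave unsaid whether the passages were separate cultures.

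Luminal breast epithelial cells depend on the estrogen receptor and on GATA3 and FOXA1, transcription factors that open the chromatin where the receptor binds. Invasive lobular carcinomas typically lose E-cadherin, the CDH1 protein, which holds epithelial cells together. A culture's RNA also reflects how many of its cells are copying DNA or dividing. E2F and the DREAM and MMB complexes control when replication and mitosis genes are on or off through the cell cycle. Other programs follow nutrients and stress: ATF4 raises amino acid synthesis and transport genes when amino acids run short, and NRF2 raises antioxidant and detoxifying enzymes, the aldo-keto reductases among them.

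The 3 arrays were alike in their overall distribution, as processing by RMA, which equalises it, makes them. Their median log2 value was 5.97 at passage 74, 5.95 at passage 75 and 5.94 at passage 76. Pearson's r across genes, which are not independent replicates, was 0.993 between passages 74 and 75, 0.994 between 75 and 76 and 0.986 between 74 and 76. The typical gene moved little: the median absolute difference was 0.12 over the first step, 0.11 over the second and 0.13 over both. The difference between 3' and 5' probe sets of actin, a sign of RNA integrity and labelling, was 1.15, 0.90 and 0.98, and that of GAPDH was 0.13, 0.09 and 0.26. The hybridisation controls BioB and BioC read 7.01, 7.02 and 6.89 and 8.34, 8.25 and 8.08, in passage order. The controls BioDn and CreX read 10.04, 10.01 and 9.96 and 12.11, 12.19 and 12.06. The part of these differences in the gene values was not tested.

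The markers showed a luminal epithelial line with high estrogen receptor RNA and no clear progesterone receptor RNA. ESR1, the estrogen receptor, read 12.49, 12.79 and 12.93 at passages 74, 75 and 76, in the 99.4th percentile of all genes. GATA3 read 12.59, 12.84 and 12.98, and FOXA1 read 9.25, 9.22 and 9.57. PGR, the progesterone receptor gene that ESR1 activates, read 3.88, 3.80 and 3.88 with its only probe set, in the 3.32th percentile. The PGR value therefore does not show the receptor-positive state that the labels give, at the level of this probe set. CDH1 read 7.89, 7.74 and 7.67, in the 68.9th percentile, so E-cadherin RNA was measured above the median gene in this lobular line. Of 19 luminal markers measured, all 19 had a mean above the median gene, against 2 of 11 basal markers, 6 of 19 mesenchymal and fibroblast markers and 1 of 14 leukocyte and endothelial markers. The leukocyte gene PTPRC read between 4.49 and 4.82 and the endothelial gene PECAM1 between 5.31 and 5.39. No detection calls come with the values, so the reading that stands for no expression is unknown.

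Ribosomal proteins made up most of the brightest genes of SUM44. A probe set's brightness also depends on its probes, so the order of genes is not an order of abundance. The highest mean belonged to EEF1A1, the factor that brings aminoacyl-tRNA to the ribosome, at 14.44, 14.37 and 14.38. RPL41, a small ribosomal protein, read 14.31, 14.33 and 14.30. The third was MGP, matrix Gla protein, a secreted inhibitor of calcification, at 13.94, 14.08 and 14.01, and it was the highest gene whose product is not part of the translation machinery. PPIA, the proline isomerase cyclophilin A, read 13.92, 14.11 and 13.9995. Cytosolic ribosomal proteins made up 17 of the 25 brightest genes, 28 of the 50 brightest and 40 of the 100 brightest. In the first 25 these were RPL41, RPL37A, RPL23A, RPS15A, RPS15, RPS10, RPS3, RPS18, RPS24, RPL7, RPS14, RPL39, RPL32, RPS19, RPL9, RPL31 and RPS23. The other 8 were EEF1A1, MGP, PPIA, TMSB10, GAPDH, TUBA1B, ACTB and GNAS. TMSB10, which binds actin monomers, had a mean of 13.87, the glycolytic enzyme GAPDH 13.84, the actin ACTB 13.74 and GNAS, the stimulatory G protein subunit of adenylyl cyclase signalling, 13.56.

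**Figure D1:**
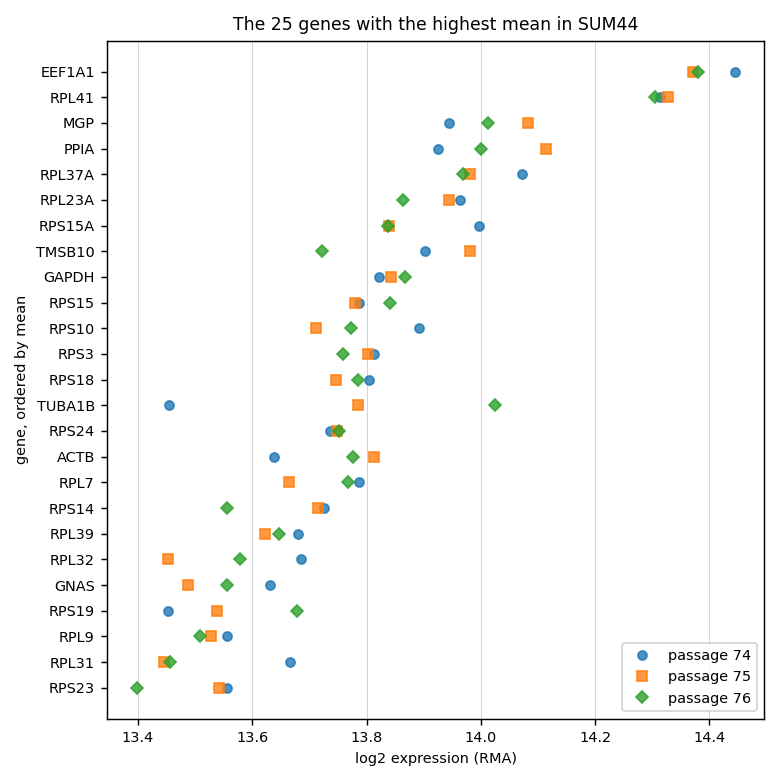
Log2 expression (horizontal axis) of the 25 genes with the highest mean in SUM44 (vertical axis), with 1 point per passage. All means are at least 13.50, and the widest spread is that of TUBA1B, from 13.45 at passage 74 to 14.02 at passage 76.

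The brightest genes lie near the top of the arrays' range, whose highest value was 14.44, and whether differences are compressed there was not tested. The largest standard deviation over the 3 passages among the 25 was 0.29, that of TUBA1B, an alpha-tubulin of microtubules, which read 13.45, 13.79 and 14.02. None of the 50 brightest genes met the passage rule, and 2 of the 100 brightest did, the steroid-metabolising reductase AKR1C2 and the translation repressor EIF4EBP1, both of which fell. Among the 50 brightest were also epithelial and secreted products, named after their values were seen. The surface glycoprotein CD24 had a mean of 13.48, the simple epithelial keratin KRT18 13.40, the chaperone HSPB1 13.14 and IGFBP5, a binding protein for insulin-like growth factors, 12.99. Which genes rank at the top depended on the probe sets: 44 of the 50 brightest were read by a probe set marked _x_at or _s_at, suffixes of sets that can match more than 1 transcript. With such sets left out, 9 of the 50 stayed among the 50 brightest.

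Between passages 74 and 76, 143 genes were lower and 144 higher by at least 1. Of the 303 genes whose highest and lowest passages differed by at least 1, 277 (91.4%) had passage 75 in the middle and so met the rule. The other 26 had their highest or lowest value at passage 75. In strict order at any size, 23.1% of all genes fell from passage to passage and 19.4% rose. The members just inside the threshold were DUSP10, ARID5B and ST6GAL1 among the fallers, at -1.002 to -1.004, and PCNA, PGM1 and TFF1 among the risers, at 1.003 to 1.004. Just outside were DIPK1A and RDH16 at -0.99 and STS at -0.99 on the falling side. On the rising side NDC80 at 0.999, MCM3 at 0.996 and FIRRM at 0.996 missed it. The DNA clamp PCNA and the replicative helicase subunit MCM3 thus lie on opposite sides of a line they both nearly touch.

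The first step gave more of the change in risers than in fallers. Among fallers the step from passage 74 to 75 gave a median of 48.6% of the whole difference (interquartile range 36.4 to 60.3%), and it was the larger step in 63 of 137. Among risers it gave 62.2% (47.8 to 72.5%), and it was the larger step in 99 of 140. The median absolute difference was 1.34 for fallers and 1.18 for risers. A difference of at least 2 on the log2 scale was reached by 22 fallers and 8 risers. Most members were not dim: 81.8% of fallers and 85.0% of risers had a mean above the median gene.

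**Figure D2:**
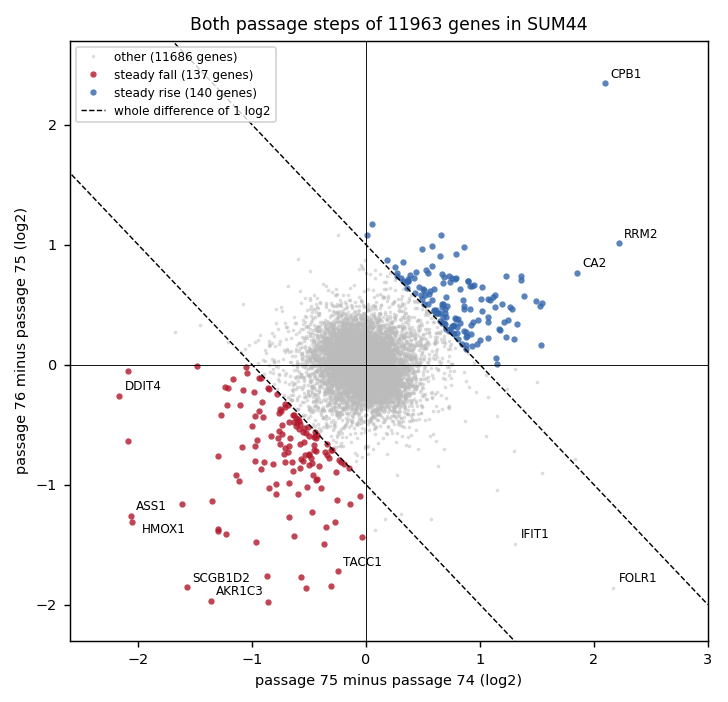
Each point is a gene. The horizontal axis is its difference between passages 75 and 74 and the vertical axis that between 76 and 75, both in log2 units; red points are the 137 fallers, blue points the 140 risers and grey points all other genes, and the dashed lines mark a whole difference of 1. Blue points lie mostly to the right of an equal split, with a median first-step share of 62.2%; CPB1 stands alone at the top right, and FOLR1 and IFIT1 lie in the lower right, where a gene that was highest at passage 75 falls.

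The faller with the largest difference was a secretoglobin. SCGB1D2, lipophilin B, a small secretoglobin that pairs with mammaglobin A, read 8.57, 7.003 and 5.15, a 10.7-fold lower value at passage 76 than at 74. SCGB2A2, mammaglobin A itself, read 13.08, 12.22 and 10.24, and its family member SCGB2A1 read 5.76, 4.81 and 4.18. The lipid-binding secreted protein APOD read 11.64, 10.41 and 9.00. These 4 were the fallers among 22 apocrine and secretory genes measured, against 1.15% of all genes that fell. The list's median difference was -0.12, against -0.02 over all genes. Other genes of that list did not share the size: the prolactin-inducible PIP read 11.67, 11.07 and 11.95, and the zinc-binding AZGP1 read 10.13, 9.96 and 10.13. SCGB2A1, SCGB1D2 and SCGB2A2 are next to each other on chromosome 11 among the measured genes.

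The aldo-keto reductases showed the highest share of fallers of all the lists. They reduce steroids, prostaglandins and reactive carbonyls with NADPH. AKR1C3, which makes active androgens and estrogens from weaker precursors, read 12.45, 11.09 and 9.12, a 10.1-fold fall. AKR1C2 read 13.77, 12.47 and 11.09, and AKR1C1 read 13.70, 12.41 and 11.03. AKR1B10, a retinal and carbonyl reductase, read 9.29, 8.33 and 6.85. These were 4 of 8 measured reductases, against 1.15% of all genes that fell. The list median was -1.31, against -0.02 over all genes. Without _x_at and _s_at sets 2 of 5 fell and the list median was -0.18, and among the 6 with a mean of at least 6 it was -2.56. The list holds no riser, and AKR1C4, AKR1D1, AKR7A2 and AKR7A3 differed by between -0.18 and 0.12. The 3 AKR1C fallers are neighbours on chromosome 10 and have closely similar sequences, and the sets for AKR1C1 and AKR1C2 carry the _x_at mark, so their readings may not be separate. A further set of AKR1C1 without that mark read 7.29, 5.63 and 5.27, in the same order.

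HMOX1, the stress-induced enzyme that breaks down heme, read 9.80, 7.75 and 6.44, a 10.3-fold fall and the second largest of all. It was 1 of 3 fallers among 17 NRF2 targets, with SLC7A11, the cystine importer, at 8.45, 6.36 and 6.31 and the thioredoxin reductase TXNRD1 at 11.69, 10.95 and 10.44. The list had a median difference of -0.60 against -0.02 over all genes, and 10 of 17 stepped down at both passages at any size. Among those below the threshold, the glutathione synthesis subunits GCLC and GCLM differed by -0.75 and -0.68 and the quinone reductase NQO1 by -0.74. Ferritin light chain, FTL, read 11.46, 11.33 and 11.37. The list was not uniform, since the pentose phosphate enzyme PGD differed by 0.30 and UGDH, which makes glucuronic acid for conjugation, by 0.33. Of 19 glutathione transferases and peroxidases, a list added after the values were seen, 4 fell and 0 rose. The shares over all genes were 1.15% and 1.17%. GPX2, an epithelial glutathione peroxidase, read 9.72, 9.09 and 7.66. GSTM3 read 11.73, 10.94 and 9.95, and GSTA4 and GSTM4, also transferases that attach glutathione to electrophiles, differed by -1.29 and -1.02. The list as a whole had a median of -0.07, close to that of all genes.

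Amino acid response genes fell mostly in the first step. ASNS, asparagine synthetase, read 11.48, 10.00 and 9.99, so that 99.2% of its fall came between passages 74 and 75. TRIB3, a pseudokinase that ATF4 induces, read 11.08, 9.84 and 9.66. DDIT4, an inhibitor of mTORC1, read 9.92, 7.76 and 7.50. The stress-response regulator NUPR1 read 12.01, 10.90 and 10.56, and CBS, which condenses serine with homocysteine, read 8.01, 6.80 and 6.60. EIF4EBP1 read 13.40, 12.48 and 12.37, and ATF3, a stress-induced transcription factor and the faller among 19 immediate-early genes, read 7.77, 7.07 and 6.71. With SLC7A11 these were the 8 fallers among 22 genes of the ATF4 and amino acid response, a list added after the values were seen. The share of fallers over all genes was 1.15%. Without _x_at and _s_at sets 3 of 12 fell. The list's median was -0.90 over the first step and 0.04 over the second, against -0.02 over all genes in the first step. At passage 76, 21 of the 22 were lower than at passage 74, and STC2, the secreted glycoprotein stanniocalcin 2, was higher. Over all genes, 46.2% were higher. ATF4 itself read 12.17, 11.20 and 11.39, and the glutathione-degrading enzyme CHAC1 read 8.67, 6.998 and 7.27. Both turned up at passage 76 and so missed the rule, and ATF4 also differed by less than 1 between passages 74 and 76. PHGDH, the first enzyme of serine synthesis, read 11.79, 10.74 and 10.72 and fell, while MTHFD1, a folate enzyme of one-carbon transfer, read 8.98, 9.59 and 10.04 and rose. None of the 16 aminoacyl-tRNA synthetases, a list also added after the values were seen, met the rule, and their list median was -0.27.

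**Figure D3:**
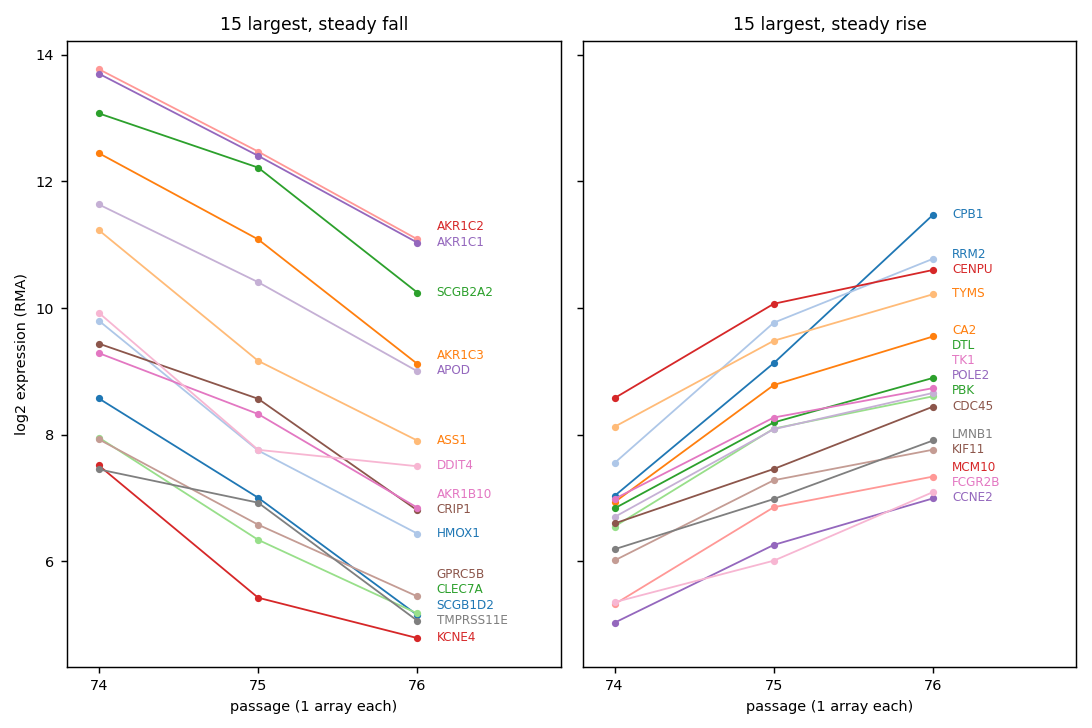
Log2 expression (vertical axis) at passages 74, 75 and 76 (horizontal axis, 1 array each) of the 15 fallers and the 15 risers with the largest differences, 1 line per gene. The fallers include both bright genes such as AKR1C2 (13.77 to 11.09) and dimmer ones such as SCGB1D2 (8.57 to 5.15), and CPB1 crosses from 7.03 to 11.47.

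The promoter windows of 2 fallers, 1 from the amino acid response list and 1 from the glutathione list, are printed to show an ATF4 and an NRF2 element. They are the 250 bases before the RefSeq start, in assembly GRCh38.p14, each 5' to 3' along the gene, with the motif in capitals. Each gene is the faller with the largest fall among those whose window holds the motif. For ASNS (chr7:97872409-97872658, minus strand) the capitals mark TGATGNAA, the core of an element bound by ATF4, whose match begins 68 bases before the start. For GPX2 (chr14:64942746-64942995, minus strand) they mark TGACNNNGC on its other strand, GCNNNGTCA, the core of the antioxidant response element that NRF2 binds, from 122 bases before the start.
ASNS: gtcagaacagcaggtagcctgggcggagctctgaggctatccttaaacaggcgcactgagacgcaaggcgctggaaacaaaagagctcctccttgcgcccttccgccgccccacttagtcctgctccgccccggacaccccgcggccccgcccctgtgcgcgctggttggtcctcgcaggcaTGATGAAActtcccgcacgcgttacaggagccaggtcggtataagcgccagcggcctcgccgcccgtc
GPX2: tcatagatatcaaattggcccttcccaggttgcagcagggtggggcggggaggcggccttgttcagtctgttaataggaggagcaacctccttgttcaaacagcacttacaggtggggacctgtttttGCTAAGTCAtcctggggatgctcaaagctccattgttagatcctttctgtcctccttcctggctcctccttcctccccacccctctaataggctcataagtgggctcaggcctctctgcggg

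The shares of windows with these letters differed little between fallers and all genes and more for the lists. The ATF4 core, searched on both strands as TGATGNAA and TTNCATCA, was in 4 of 113 faller windows (3.54%) and in 1.98% of the windows of all 9563 measured genes that matched a RefSeq entry. It was in 3 of 18 windows of the ATF4 list (16.7%). The NRF2 core was in 11.5% of faller windows and 11.9% of all windows, in 4 of 13 windows of the NRF2 list (30.8%), in 5 of 18 of the ATF4 list (27.8%) and in 5 of 28 of the replication and mitosis list (17.9%). A match is a description of the letters in the window.

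A urea-cycle enzyme was among the largest fallers. ASS1, argininosuccinate synthase, which makes the precursor of arginine from citrulline, read 11.23, 9.17 and 7.91. It fell in both steps, by 62.1% of the whole in the first. Other large fallers have varied roles: CLEC7A, the beta-glucan receptor dectin-1, read 7.95, 6.34 and 5.17. KCNE4, an accessory subunit of potassium channels, read 7.51, 5.42 and 4.79. The LIM protein CRIP1 read 9.44, 8.57 and 6.80, and CRIP2, its neighbour on chromosome 14, also fell. The orphan receptor GPRC5B read 7.93, 6.58 and 5.44. TMPRSS11E, a membrane serine protease, read 7.45, 6.93 and 5.06, with 22.0% of its fall in the first step.

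Further fallers were named after their values were seen. FOXI1, a transcription factor of acid-secreting epithelial cells, read 8.71, 8.15 and 6.38. ATP6V1B1, a proton pump subunit of such cells, read 7.22, 6.65 and 5.79. TGFBR2, the type II receptor of TGF-beta, read 7.80, 6.83 and 6.03. LTBP1, which stores latent TGF-beta in the matrix, differed by -1.05 and BAMBI, a decoy receptor of the same family, by -1.04. The protease cathepsin H, CTSH, read 9.77, 9.13 and 8.25, and cathepsin L, CTSL, 9.17, 8.49 and 8.15. These were the fallers among 13 cathepsins. H2AC6 read 9.54, 8.83 and 8.09 and H4C8 read 5.42, 4.92 and 4.16. They were the fallers among 8 clustered histone genes, a list with a median of -0.72. The cathepsin and histone lists were added after the values were seen, and 1.15% of all genes fell.

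Luminal and plasma protein genes supplied a few more. For the counts below, 1.15% of all genes fell and 1.17% rose. MUC1, an apical mucin, read 9.04, 8.60 and 7.64, and the tight junction protein CLDN3 read 9.18, 8.67 and 8.15. Both fell, TFF1 rose, and the 19 luminal genes had a median difference of -0.13. P-cadherin, CDH3, was the faller among 11 basal genes, at 8.25, 7.61 and 6.80. Among 25 liver-type plasma protein genes 2 fell: AMBP, the precursor of alpha-1-microglobulin, at 10.51, 9.21 and 8.45, and SERPINA1, the inhibitor of neutrophil elastase, at 8.91, 8.09 and 7.26. Another set for SERPINA1 read 7.48, 6.45 and 5.82, while a dim one read 3.91, 4.03 and 4.02. The growth factor receptor ERBB4 read 7.92, 7.77 and 6.91. The p53 target GADD45A read 9.26, 8.68 and 8.02. TACC1, a coiled-coil protein of the centrosome, read 10.68, 10.43 and 8.71, with 12.6% of its fall in the first step, and with EIF4EBP1 it was a faller of the 20 measured genes of 8p11-p12. Another TACC1 set read 7.06, 6.31 and 4.52, and a dim one read 4.22, 4.17 and 4.24.

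The risers were led by CPB1 and held many replication and mitosis genes. CPB1, carboxypeptidase B1, a digestive enzyme best known from the pancreas, read 7.03, 9.13 and 11.47, a 21.7-fold higher value at passage 76 than at 74. It moved by more than 2 in each step, as no other gene did. CA2, carbonic anhydrase 2, read 6.93, 8.78 and 9.55, a 6.14-fold rise. FCGR2B, an inhibitory Fc receptor, read 5.35, 6.01 and 7.09. These are the members of the 15 largest rises that are not known for DNA synthesis, the nucleus or division. LMNB1, lamin B1 of the nuclear envelope, read 6.19, 6.98 and 7.91.

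Every one of the 36 measured genes of the DNA replication and mitosis list was higher at each later passage. Of these, 22 (61.1%) rose by the rule and 0 fell, against 1.17% of all genes that rose. The list's median difference was 1.07, against -0.02 over all genes, with a range of 0.35 to 3.23. Most of it came early, with a median of 0.73 over the first step and 0.30 over the second. The smallest differences were those of the mitotic kinase PLK1 (7.15, 7.47 and 7.50) and of CDC20, the activator of the anaphase-promoting complex (8.36, 8.36 and 8.72). The proliferation antigen MKI67 read 6.38, 7.11 and 7.41 and topoisomerase TOP2A read 7.79, 8.50 and 8.99. More dividing cells and more RNA per dividing cell cannot be told apart in such bulk RNA.

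**Figure D4:**
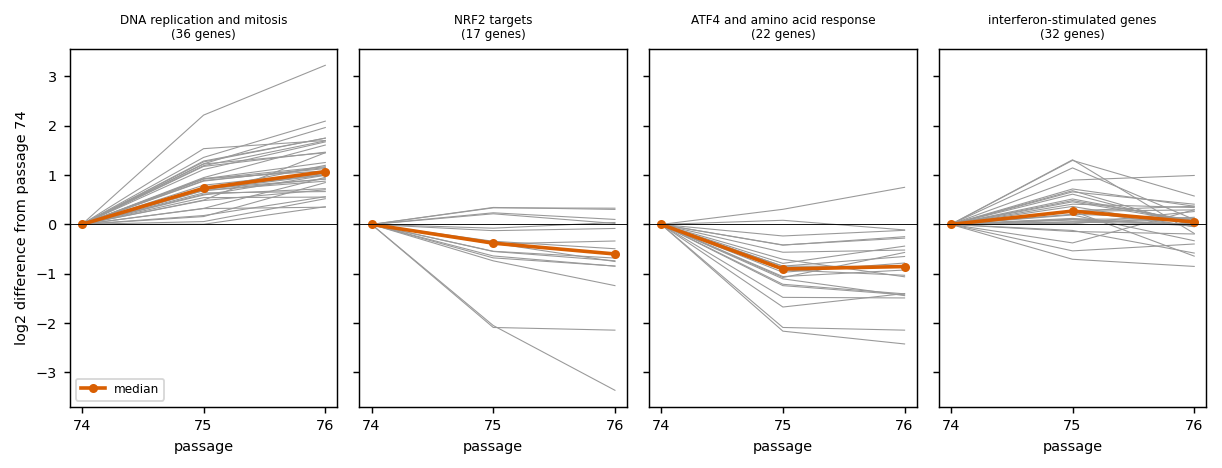
Difference from passage 74 in log2 units (vertical axis) at passages 74, 75 and 76 (horizontal axis) for the measured genes of 4 lists, 1 grey line per gene and the median in orange. Replication and mitosis genes climb in both steps to a median of 1.07, NRF2 targets decline to -0.60, amino acid response genes drop by the first step and then level off, and interferon-stimulated genes peak at passage 75.

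The largest difference of the list was that of a nucleotide supply gene. RRM2, the regulated subunit of ribonucleotide reductase, read 7.55, 9.77 and 10.78, a 9.36-fold rise. Another RRM2 set read 6.82, 8.83 and 9.93. TYMS, thymidylate synthase, read 8.12, 9.48 and 10.22, and thymidine kinase TK1 read 6.99, 8.27 and 8.73. RRM1, the constant subunit of the reductase, read 8.62, 9.42 and 9.68. The deoxycytidine kinase DCK also rose, at 6.43, 7.19 and 7.91. Of 9 genes of nucleotide supply, a list added after the values were seen, 6 rose, against 1.17% of all genes.

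The complexes of the replication machinery held risers to differing degrees. These complexes were drawn up after the values were seen, and 1.17% of all genes rose. Of the 6 subunits of the MCM2-7 helicase, which unwinds DNA, MCM4, MCM5, MCM6 and MCM7 rose, while MCM2 at 0.92 and MCM3 at 0.996 came near the threshold. MCM5 read 7.75, 8.94 and 9.44. The helicase partner CDC45 read 6.60, 7.46 and 8.44, and the replication factor MCM10 read 5.32, 6.85 and 7.34. Of the 4 GINS subunits, which join CDC45 on the helicase, GINS2 and GINS3 rose and all 4 were higher at passage 76. Without _x_at and _s_at sets 0 of 3 GINS subunits rose. The clamp loader RFC had 3 risers among 5 subunits, among them RFC4 at 7.43, 8.28 and 8.56. RFC5 rose as well, at 7.86, 8.63 and 8.90, although another RFC5 set read 8.02, 8.00 and 7.87. The polymerases gave 4 risers among 11 genes, with POLE2, an accessory subunit of the leading-strand polymerase, at 6.70, 8.09 and 8.66. Of the 6 origin recognition subunits 0 rose, a count near the share of all genes. Their median difference was 0.25, against -0.02 over all genes. DTL, which marks the licensing factor CDT1 and other proteins for destruction in S phase, read 6.83, 8.19 and 8.90, and CDT1 itself rose by 1.06.

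Cell cycle drivers and mitotic genes gave many more risers. Their lists were also drawn up after the values were seen. Of 10 cyclins and cyclin-dependent kinases 5 rose. CCNE2, which drives entry into S phase, read 5.03, 6.26 and 6.99, and CDK1, the mitotic kinase, read 8.95, 10.49 and 10.65. Both other CDK1 sets met the rule too. Of 11 mitotic kinesins 5 rose. KIF11, which pushes spindle poles apart, read 6.01, 7.28 and 7.76. Of 12 centromere proteins 6 rose, and CENPU, a part of the inner kinetochore, read 8.58, 10.07 and 10.60. The condensin list, for chromosome compaction, gave 4 risers among 8 genes and the spindle checkpoint 3 among 7. With means over all sets of a gene, 3 of 10 cyclins and kinases and 3 of 12 centromere proteins rose. In that setting 2 of 7 checkpoint genes, 5 of 11 kinesins and 20 of 36 genes of the DNA replication and mitosis list rose. Without _x_at and _s_at sets 2 of 6 condensin genes and 17 of 27 genes of the DNA replication and mitosis list rose. PBK, a mitotic kinase, read 6.55, 8.10 and 8.61. Joined, the DNA replication and mitosis list and the added lists of such genes hold 102 measured genes. Of these, 47 rose, 0 fell and 96 were higher at passage 76, against 1.17%, 1.15% and 46.2% of all genes. The 47 account for 33.6% of all risers.

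The promoter windows of 3 such risers are printed to show an E2F site, a cell cycle homology region and CCAAT boxes. Binding to these letters in SUM44 was not tested. They have the same length, source and assembly as those above. In the window of DTL (chr1:212035498-212035747, plus strand) the capitals mark TTTNGCGC, an E2F site, which begins 8 bases before the start. In that of KIF11 (chr10:92592880-92593129, plus strand) they mark the cell cycle homology region TTTGAA, here as TTCAAA, 28 bases before the start, bound by the DREAM and MMB complexes. In that of RRM2 (chr2:10122489-10122738, plus strand) they mark 3 CCAAT boxes, bound by NF-Y, at 123, 93 and 66 bases before the start. Each gene is the riser with the largest difference among those with the motif.
DTL: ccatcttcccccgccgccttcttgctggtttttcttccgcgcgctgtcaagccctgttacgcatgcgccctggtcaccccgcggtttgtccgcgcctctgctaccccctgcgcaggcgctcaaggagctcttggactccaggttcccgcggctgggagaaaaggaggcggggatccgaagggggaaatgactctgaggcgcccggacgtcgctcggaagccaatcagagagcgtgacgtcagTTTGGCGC
KIF11: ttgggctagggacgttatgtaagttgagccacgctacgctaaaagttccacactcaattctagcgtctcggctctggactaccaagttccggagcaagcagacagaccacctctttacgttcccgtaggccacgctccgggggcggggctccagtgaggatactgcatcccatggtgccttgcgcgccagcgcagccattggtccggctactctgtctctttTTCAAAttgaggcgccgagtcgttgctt
RRM2: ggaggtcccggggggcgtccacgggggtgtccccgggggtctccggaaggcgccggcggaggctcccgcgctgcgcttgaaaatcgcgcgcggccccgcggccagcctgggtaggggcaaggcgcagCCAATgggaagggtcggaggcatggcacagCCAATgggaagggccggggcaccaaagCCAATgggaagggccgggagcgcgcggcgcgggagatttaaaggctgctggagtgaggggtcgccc

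These elements were more frequent in the windows of risers than in those of all genes. The E2F site, as TTTNGCGC or GCGCNAAA, was in 12 of 119 riser windows (10.1%), in 0 of 113 faller windows and in 2.32% of all 9563 windows. The homology region, as TTTGAA or TTCAAA, was in 21.01% of riser windows, 10.6% of faller windows and 9.73% of all windows. The CCAAT box, as CCAAT or ATTGG, was in 52.9% of riser windows, 36.3% of faller windows and 35.6% of all windows. In the replication and mitosis list 23 of 28 windows (82.1%) held a CCAAT box. The median GC content was 63.6% in risers and 62.8% in fallers. No test was made of these shares, and the motifs were chosen after the members were known.

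The window of CPB1 (chr3:148827561-148827810, plus strand), the gene with the largest difference, is printed as one outside the cell cycle group. Its capitals mark a TATA box, TATAAA, that begins 31 bases before the start, about where such boxes usually lie. The letters TATAAA or TTTATA were in 6.72% of riser windows and 7.93% of all windows.
CPB1: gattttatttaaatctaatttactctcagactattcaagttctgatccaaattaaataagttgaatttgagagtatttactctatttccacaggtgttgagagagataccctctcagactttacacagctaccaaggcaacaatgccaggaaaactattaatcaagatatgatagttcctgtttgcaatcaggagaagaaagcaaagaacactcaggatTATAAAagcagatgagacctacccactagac

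Among 30 estrogen receptor targets 3 rose and 1 fell, against 1.17% and 1.15% of all genes. Their median difference was 0.25, and 19 of the 30 were higher at passage 76, against 46.2% of all genes. MYBL1, a MYB family transcription factor, read 5.53, 6.55 and 7.20. The scaffold PDZK1 read 7.92, 7.97 and 9.14, with 4.11% of its rise in the first step, and the secreted trefoil peptide TFF1 read 11.19, 12.07 and 12.20. SERPINA1 was the target that fell. GREB1, an early target of the receptor, read 4.99, 5.06 and 4.89, and cyclin D1, CCND1, read 10.35, 10.51 and 10.76. Fibronectin, FN1, a matrix protein and the riser of the mesenchymal list, read 7.02, 7.88 and 8.42. Of its 5 other sets 3 met the rule.

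Among 26 hypoxia and glycolysis genes, the enolase ENO2 (6.17, 6.35 and 7.23) and the phosphofructokinase PFKP (7.81, 8.36 and 8.86) rose, while DDIT4 fell. Over all genes 1.17% rose and 1.15% fell. Of 24 unfolded protein response genes 1 rose, the chaperone partner SDF2L1 at 8.46, 9.13 and 9.48, and 3 fell, which were the amino acid response genes ASNS, TRIB3 and ATF3. The fatty acid elongase ELOVL6 read 6.09, 6.90 and 7.28. The transferrin receptor TFRC, which imports iron, read 10.05, 10.81 and 11.13 and was named after its values were seen.

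**Figure D5:**
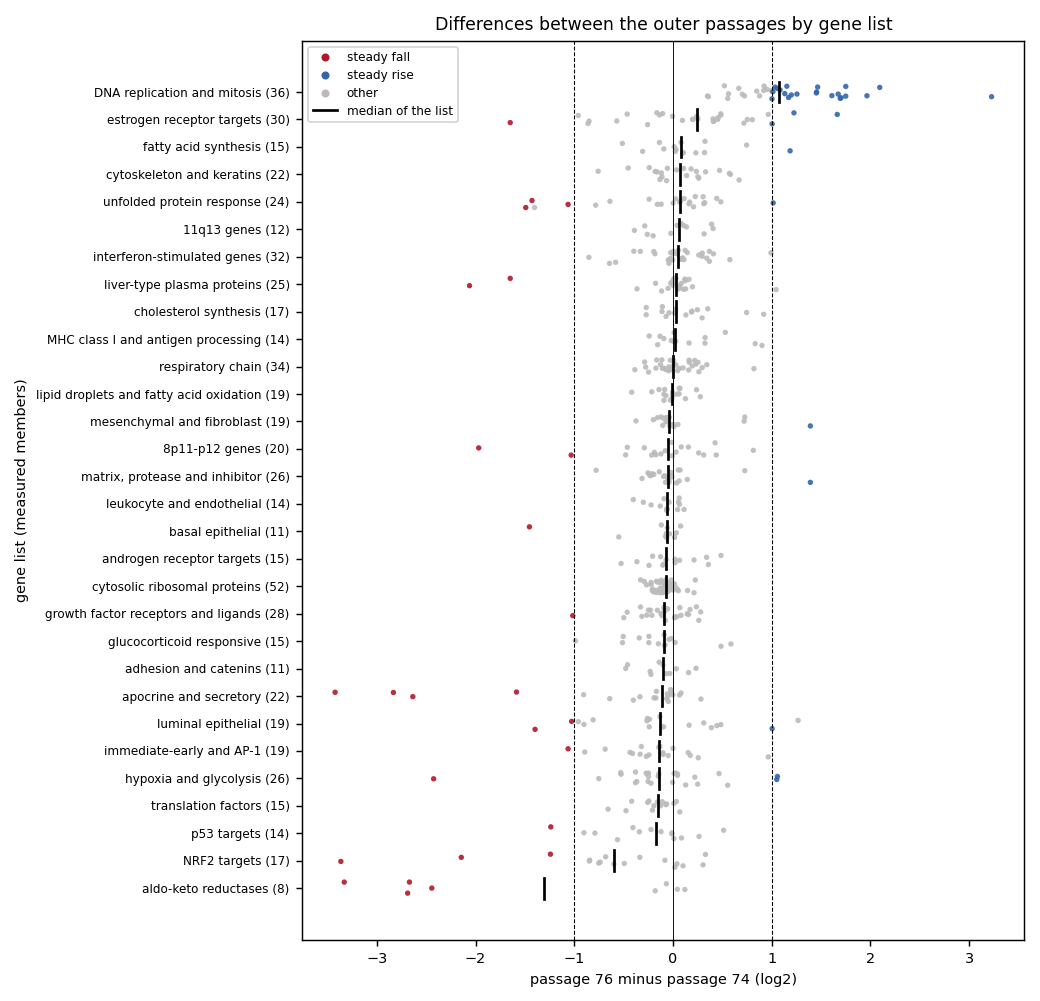
Difference between passages 76 and 74 in log2 units (horizontal axis) for the measured members of 30 gene lists (vertical axis, number of measured members in brackets, lists ordered by their median), with 1 point per gene and a black bar at the median. Fallers are red, risers blue and other genes grey, and the dashed lines mark -1 and 1. The replication and mitosis list lies wholly to the right of 0, with a median of 1.07, and the aldo-keto reductases and NRF2 targets have the lowest medians, -1.31 and -0.60.

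Most of the 30 lists held few or no members. Together they hold 605 measured genes, which include 24 of the 137 fallers and 30 of the 140 risers. Over all genes 1.15% fell and 1.17% rose, so a short list can hold 0 of either kind without differing from all genes. Lists with 0 of either kind covered ribosomal proteins (52 genes, median -0.07), the respiratory chain (34 genes), interferon-stimulated genes (32 genes, 0.05), the cytoskeleton and keratins (22 genes) and lipid droplets and fatty acid oxidation (19 genes). The same held for cholesterol synthesis (17 genes), translation factors, androgen receptor targets and glucocorticoid-responsive genes (15 each), MHC class I and leukocyte or endothelial genes (14 each), 11q13 genes (12) and adhesion genes (11). None of the brightest members of these lists met the rule. COX6C, a cytochrome oxidase subunit, read 12.81, 12.69 and 12.64, and B2M, the light chain of MHC class I, read 12.21, 12.26 and 12.08. The mitochondrial beta-oxidation enzyme HADHB read 11.86, 11.62 and 11.72, and the metallothionein MT2A read 11.14, 11.07 and 10.89. The cell adhesion protein CTNNA1, alpha-catenin, read 11.47, 11.34 and 11.50. NDRG1, an androgen-responsive gene that is also induced by hypoxia, read 9.37, 9.03 and 8.85. IDI1 of the cholesterol pathway read 10.86, 10.85 and 11.21, the 11q13 gene CLNS1A 11.62, 11.72 and 11.72, and the receptor TEK 6.68, 6.81 and 6.62. BST2, an interferon-induced membrane protein, read 10.64, 10.68 and 10.64.

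Other probe sets of the same genes gave a further reading of the direction on the same RNA. Their means were compared when the brightest set of each gene was picked, but their differences between passages were not used to choose members. They share the arrays, and some carry the _x_at or _s_at mark, so their readings may not be separate from those of the chosen sets. For comparison with risers, 46.2% of all genes, read by their chosen sets, were higher at the last passage than at the first. For fallers the comparison is the share of all genes that were lower, which was the larger of these shares. Of 78 other sets for 49 fallers, 69 had the same sign and 28 met the rule. Among the 35 of these sets with a mean of at least 6, all 35 had the same sign and 24 met the rule. Of 76 other sets for 52 risers, 70 had the same sign and 24 met the rule. Among the 31 with a mean of at least 6, 30 had the same sign and 20 met the rule, and the exception was the RFC5 set given above. None of these sets differed by 1 or more in the opposite direction.

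Fallers next to each other on a chromosome came from few places. Of 11930 pairs of neighbouring measured genes, 8 were pairs of fallers and 1 was a pair of risers. The AKR1C genes and the secretoglobins gave 2 pairs each. The remaining pairs of fallers were CRIP2 with CRIP1, KMO with OPN3 and DUSP10 with HHIPL2 on chromosome 1, and JAG1, a ligand of Notch, with BTBD3 on chromosome 20. The pair of risers was the DNA-binding protein HMGB2 with SAP30, a part of histone deacetylase complexes, on chromosome 4.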

How the data were processed

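Total RNA of SUM44 at passages 74, 75 and 76 was labelled with biotin by the one-cycle Affymetrix protocol, per the labels, and hybridised to 1 array per passage. As deposited, the data are on a log2 scale, after RMA by the authors, per the submitters' processing notes; the design text adds that the Bioconductor version of the method was used. RMA corrects background, equalises the distributions of the arrays and summarises probes. Its release number and chip definition file, and whether SUM44 and LCCTam arrays shared 1 run, are not stated in the sources used here.

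Of 22283 probe sets 68 were controls. The platform annotation given with the data gave 1 gene symbol to 19071 sets and several to 1043. Of the non-control sets, 3150 were not named. Symbols were updated through Entrez identifiers with the RefSeq table of GRCh38.p14. The set with the highest mean over the 3 SUM44 arrays stood for each of 11963 genes, of which 4310 had several sets. A steady gene was ordered by passage with an absolute difference of at least 1 between passages 74 and 76. No test was made, and the number of arrays limits the precision. Python 3.11.15, pandas 2.3.3 and numpy 2.4.6 were used. The code of the selection was checked on simulated data with differences well above the threshold and little noise. That check does not show how reliable the selection is on these arrays. LCCTam arrays were not used, except in 1 alternative that took the brightest set over 6 arrays. Alternatives also changed the scaling, the probe sets, a floor of 6, the threshold (0.8 or 1.5) and a minimum of 0.25 per step.

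The rule for named genes took ESR1, PGR and CDH1, the 25 brightest genes, the 15 largest fallers and risers, up to 4 steady genes per list (or the brightest member) and the 3 genes nearest the threshold on each side. Other genes were named after their values were seen, as members of a named family or complex. The members and the 30 lists were chosen with earlier results of these data known. Promoter windows were the 250 bases before the RefSeq start, found for 9563 genes, 113 fallers and 119 risers.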

Additional observations from a re-analysis of the deposited data

How the results depend on the processing

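The counts of 137 fallers and 140 risers depended on the arrays, the probe sets and the threshold. Without _x_at and _s_at sets, which leaves 8369 genes, there were 84 fallers and 88 risers, and 9 of the 50 brightest genes kept their place. In that setting SERPINA1 and TACC1 were read by dim sets and differed by 0.11 and 0.0197. A threshold of 0.8 gave 233 fallers and 228 risers, and 1.5 gave 46 and 36. Leaving out each array in turn, with no condition on order, gave 34 to 143 fallers and 6 to 144 risers. The lowest counts belong to pairs of neighbouring passages: without passage 74 the counts were 39 and 6, and without passage 76 they were 34 and 48. Scaling moved the balance: quantile normalization gave 121 fallers and 152 risers, and shifting the arrays to one median 126 and 154. All 140 risers met the rule again after quantile normalization. Means over all sets of a gene gave 116 and 114. Every passage has 1 array, so no error can be given for a passage, and a difference of arrays and one of cultures cannot be told apart.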

Other observations

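Interferon-stimulated genes had a pattern that the passage rule leaves out. Of 32 measured genes 20 were highest at passage 75, against 26.5% of all genes. The list's median was 0.27 higher at passage 75 than at 74 and then changed by -0.15, and 23 of the 32 were lower at passage 76 than at 75. The antiviral IFIT1, which binds foreign RNA ends, read 6.36, 7.67 and 6.18 at passages 74, 75 and 76. MX1, a GTPase that blocks viruses, read 5.54, 6.69 and 5.64, and OAS2, which makes the activator of RNase L, read 6.23, 7.53 and 6.81. The ubiquitin-like ISG15 read 10.30, 10.91 and 10.28. Not every member took part: IFI6 read 8.72, 8.34 and 9.02, and OAS3 read 8.64, 9.53 and 9.63. TNFSF10, the death ligand TRAIL, which is not in that list, read 6.20, 7.25 and 6.66.

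The 26 genes with a range of at least 1 out of passage order comprised 18 that were highest at passage 75 and 8 that were lowest there. The widest was FOLR1, the folate receptor alpha, at 6.97, 9.14 and 7.28. Albumin, ALB, read 6.88, 8.72 and 7.93, the neuropeptide NMU 5.64, 7.13 and 6.99, and the luminal secretory protein AGR2 11.26, 12.56 and 12.52. Among those lowest at passage 75 were PCK2, the mitochondrial PEP carboxykinase, at 9.81, 8.35 and 8.69, and the glucocorticoid-induced TSC22D3 at 10.22, 9.12 and 9.23. These genes were named after their values were seen.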
